A study of Arabidopsis thaliana with 12 samples.

Results

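Arabidopsis thaliana seedlings that lacked both IRE1A and IRE1B were compared with wild-type (WT) seedlings after tunicamycin treatment, on 6 of the 12 arrays of the series. The members were chosen by their labels: 3 arrays of ire1a ire1b with tunicamycin and 3 arrays of WT with tunicamycin. All seedlings were 10 days old, of the Columbia (Col-0) background and grown at 22 °C. All received actinomycin D at 75 µM, which blocks transcription, and 2 h later tunicamycin at 5 mg/l for 5 h. The other 6 arrays, 3 of ire1a ire1b and 3 of WT, had DMSO (mock) in place of tunicamycin and the same actinomycin D, and they are used here to show which genotype differences were there without tunicamycin. Whether a group's 3 arrays came from separate plant cultures is not stated in the labels. The p-values therefore reflect only how far these arrays differ, and that spread may be technical.

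Tunicamycin blocks the first step of N-glycosylation, so that newly made proteins misfold in the endoplasmic reticulum (ER). IRE1 is an ER membrane protein that senses this and carries a cytosolic RNase domain. In plants that RNase removes an intron from the bZIP60 mRNA, which then encodes an active transcription factor, and it also cuts other mRNAs, many of them translated at the ER membrane, which are then degraded (regulated IRE1-dependent decay). Actinomycin D removes most new synthesis, so that under it the level of a transcript depends mainly on its starting level and its decay. The starting levels, before actinomycin D, were not measured on these arrays.

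The values are MAS5 signals, a linear intensity per probe set, taken as log2. Every array had a 2% trimmed mean signal of about 500.1, and the median signal lay between 106.7 and 118.8. RNA integrity, read as the 3′ over 5′ signal ratio of control transcripts, was 1.28 ± 0.23 in ire1a ire1b and 1.34 ± 0.14 in WT with tunicamycin (log2, SD, n = 3 each). These overlapped (difference -0.06, exact permutation p = 0.8, two-sided; the smallest possible with 3 against 3 is 0.1). Array 3 of ire1a ire1b with tunicamycin stood apart: the SD of its probe sets around their group mean was 0.30 on the log2 scale, against 0.17 to 0.26 on the other 11 arrays. No probe set carries the name of IRE1A, IRE1B, BIP1, BIP2 or BIP3, so loss of the IRE1 transcripts was not checked. Of the root and shoot markers only RCA was tested, at a log2 difference of -0.01. In whole seedlings, fewer cells of a type and less RNA per cell cannot be told apart.

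With tunicamycin, more probe sets were called higher in ire1a ire1b than lower, but this depended on the criterion. At an unadjusted limma p under 0.05, 1490 were higher and 1658 lower. Limma called 911 of 13647 tested probe sets higher (6.68%) and 413 lower (3.03%) at an adjusted p under 0.05. Of these, 348 higher and 104 lower probe sets differed at least 2-fold, and 36 higher and 14 lower at least 4-fold. With every array centred on its own median, 1081 were called higher and 264 lower, so that higher calls made up 80.4% of the calls in place of 68.8%. Over all tested probe sets the median log2 difference was -0.08. Without array 3 of ire1a ire1b, 1024 were called higher, 818 of them among the 911, and 427 lower, 285 of them among the 413. The lower count depended on single arrays: it was 221 without array 2 of ire1a ire1b, and 232, 208 and 187 without WT array 1, 2 and 3. The 3 arrays of ire1a ire1b lay above all 3 WT arrays for 1574 tested probe sets (11.5%) and below them for 2228 (16.3%). Among the called, this held for 905 of 911 higher and 409 of 413 lower probe sets.

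The higher and the lower transcripts differed in what the mock arrays showed. Without tunicamycin, 22 probe sets were called higher in ire1a ire1b (0.161%) and 44 lower (0.322%). These mock counts were 309 and 598 with array weights, and 41 and 64 with the replicate number as a block. Of the 911 probe sets higher under tunicamycin, 454 (49.8%) also had a higher mean in ire1a ire1b under mock, and their median log2 genotype difference was 0.86 under tunicamycin and -0.001 under mock. Of the 413 lower probe sets, 384 (93.0%) also had a lower mean in ire1a ire1b under mock, against 7474 of all 13647 tested (54.8%). Their median difference was -0.67 under tunicamycin and -0.26 under mock. The tunicamycin and mock comparisons share no array. However, arrays of ire1a ire1b with the same number deviated from their group means together (Pearson r across probe sets of 0.11, 0.44 and 0.51 between tunicamycin and mock), and the part of this in the shared direction was not tested.

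**Figure D1:**
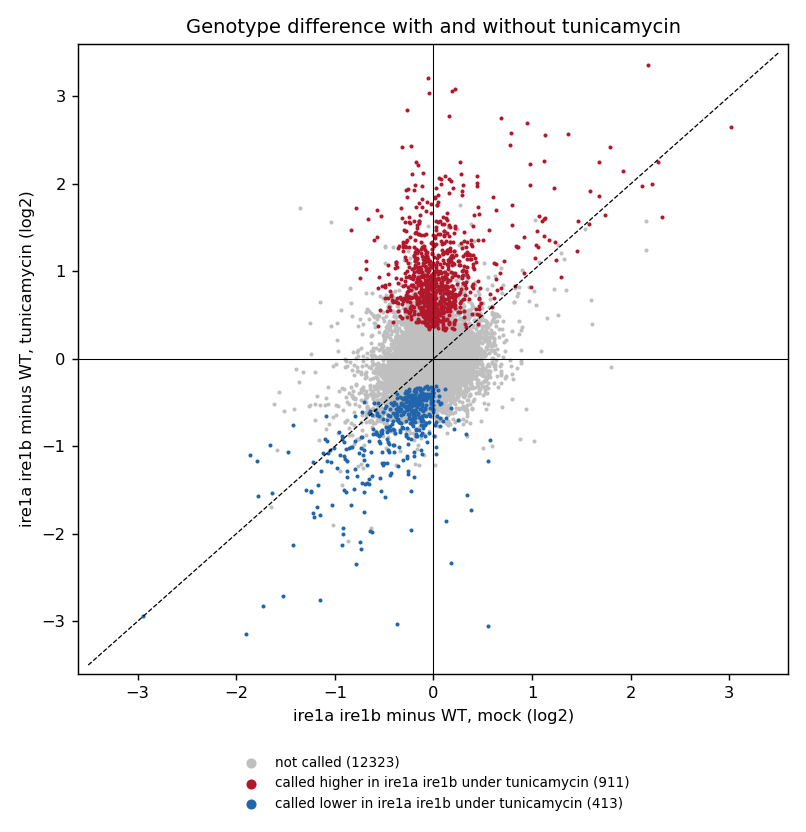
Log2 difference of ire1a ire1b minus WT for each of 13647 probe sets under tunicamycin (vertical axis) and under mock (horizontal axis); the dashed line marks equal differences. The 911 probe sets called higher (red) are spread around 0 on the mock axis, with a median of -0.001, while most of the 413 called lower (blue) lie left of 0, with a median of -0.26.

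The difference between the genotype differences was tested directly as an interaction. It was called in the higher direction for 406 probe sets (2.98%) and in the lower direction for 12 (0.0879%). Of the 911 higher probe sets, 393 (43.1% of them, 2.88% of all tested) also passed in the interaction, 184 of them with 1 named gene. Of the 413 lower, 11 did (2.66% of them, 0.0806% of all tested). Leaving out single arrays gave between 6 and 21 in place of the 11, the highest without array 3 of ire1a ire1b with tunicamycin. The interaction uses the same tunicamycin arrays as the main comparison, so these are not independent. Under mock, 21 of the higher and 23 of the lower probe sets passed in the same direction, 1 of the higher ones being also among the 393, which is 95.5% of the 22 called higher and 52.3% of the 44 called lower there. For the other 498 higher and 379 lower probe sets neither test passed, so it is undecided whether their difference was larger with tunicamycin. One gene, AT2G12400, was called higher under tunicamycin (0.38) and lower under mock (-0.56), and it was chosen here after its values were seen.

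Within each genotype, tunicamycin arrays were also set against mock arrays. The 911 higher probe sets had a median change with tunicamycin of 0.06 in ire1a ire1b and of -0.78 in WT (log2, tunicamycin minus mock), values that share arrays with the genotype difference. The 413 lower probe sets had a median change of -0.15 in ire1a ire1b and of 0.20 in WT. Bright transcripts were called higher more often than dim ones. In 5 equal groups by mean mock signal, from the dimmest to the brightest, 1.83%, 3.26%, 7.15%, 10.6% and 10.5% were called higher, and 1.90%, 3.19%, 3.44%, 3.96% and 2.64% were called lower. Dim probe sets vary more in MAS5 values, and the part of this in the trend was not tested.

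Most of the named transcripts furthest above WT lay near their mock level in ire1a ire1b and far below it in WT. The largest difference among those whose mean signal was above the testing limit of 68.7 in every group was that of ATPMEPCRB, the pectin methylesterase PME41, an enzyme that removes methyl esters from cell wall pectin. Its signal was 607, 737 and 593 in ire1a ire1b and 92.4, 82.5 and 92.8 in WT with tunicamycin, and 457, 521 and 365 in ire1a ire1b and 662, 510 and 450 in WT with mock. The 3 WT arrays with tunicamycin lay below the other 9. The genotype difference was 2.85 ± 0.17 (log2, SE) with tunicamycin, which is 7.21-fold (limma adjusted p = 3.45e-07), and -0.27 with mock, and the interaction was 3.12 ± 0.24 (adjusted p = 1.30e-05).

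GAMMA-VPE, a vacuolar processing enzyme that matures other vacuolar proteins, had signals of 2394, 2964 and 1436 in ire1a ire1b and 406, 444 and 370 in WT with tunicamycin. Under mock it read 1890, 2613 and 1645 in ire1a ire1b and 2632, 3064 and 1950 in WT. Again only WT with tunicamycin was low, by 5.35-fold against ire1a ire1b (2.42 ± 0.24, adjusted p = 2.71e-05). AT4G29270 gave 1452, 1308 and 1094 in ire1a ire1b and 233, 271 and 325 in WT with tunicamycin (2.22 ± 0.14, adjusted p = 6.24e-07), with 1360, 1316 and 1247 in ire1a ire1b and 1471, 1287 and 1623 in WT under mock. AT1G33600 had the largest difference of all named genes, 3.21 ± 0.60 (adjusted p = 0.00353). Its arrays were uneven, at 1026, 732 and 245 in ire1a ire1b against 47.7, 110 and 44.3 in WT, where the mean lay below the limit of 68.7. Its interaction of 3.26 ± 0.85 did not pass (adjusted p = 0.059).

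**Figure D2:**
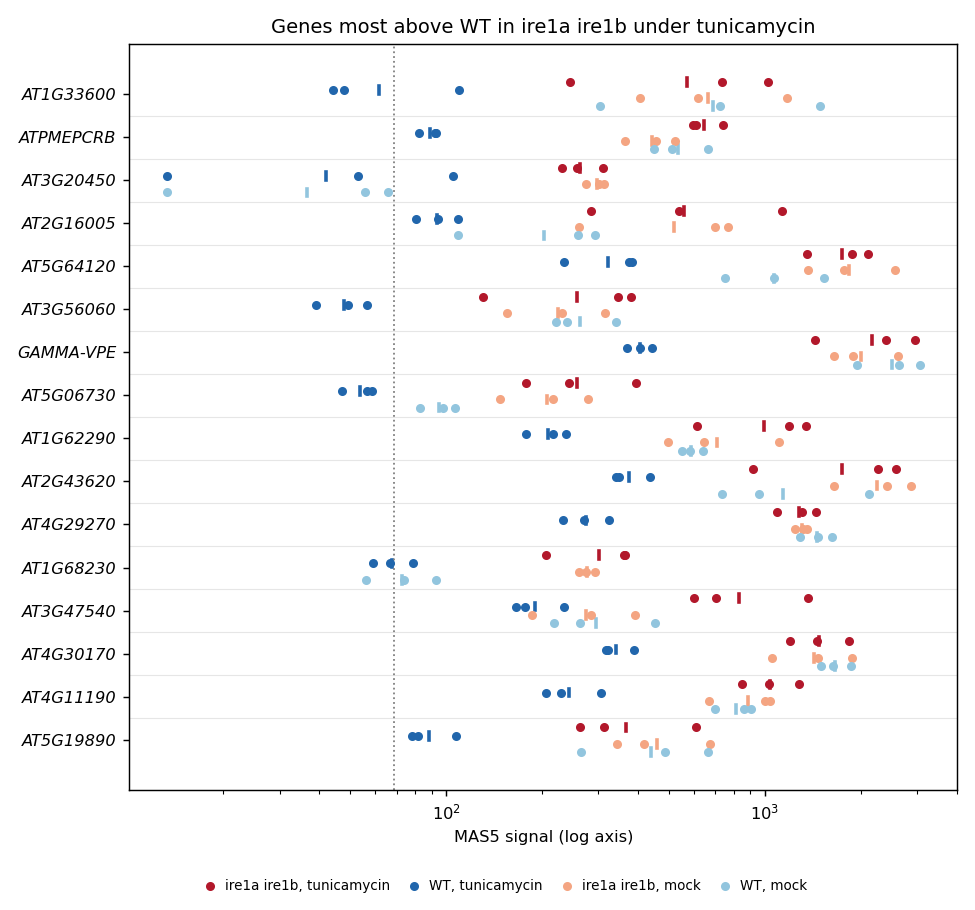
MAS5 signal (log axis) on each of the 12 arrays for the 16 named genes furthest above WT in ire1a ire1b with tunicamycin; points are arrays, short bars are geometric means of 3 arrays, and the dotted line is the signal of 68.7 used for testing. For most genes 3 groups lie together and WT with tunicamycin lies to the left, while AT3G20450 and AT1G68230 are low in WT under mock too.

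Not all of these genes followed that pattern. For 10 of the 16 the interaction passed. AT1G68230, a reticulon-like gene of the family that shapes ER tubules, was higher in ire1a ire1b with tunicamycin (363, 206 and 364, against 58.8, 78.9 and 66.8 in WT) and under mock (294, 262 and 274, against 93.3, 73.8 and 55.9 in WT). AT3G20450 differed by 2.65 ± 0.64 with tunicamycin and by 3.02 with mock, the second without passing (adjusted p = 0.067). AT3G47540, from the chitinase list, had 704, 600 and 1364 in ire1a ire1b and 166, 177 and 235 in WT with tunicamycin, but 285, 186 and 392 in ire1a ire1b under mock. So its tunicamycin level in ire1a ire1b lay above its own mock level, by 1.60 on the log2 scale, while in WT the change was -0.63.

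The gene families below were counted over 1 probe set per named gene, of which 6.14% were called higher and 3% lower over all 7263 named genes tested. The genes of the ER body, an ER-derived compartment of Brassicaceae seedlings that stores beta-glucosidases against attackers, were among the brightest. Of 5 tested, 3 were called higher and 0 lower (2 higher without WT array 1). PYK10, the main ER body beta-glucosidase, read 23333, 25042 and 25548 in ire1a ire1b and 9633, 10241 and 10328 in WT with tunicamycin. Under mock it read 22742, 24040 and 22534 in ire1a ire1b and 23758, 21963 and 23271 in WT. Its difference was 1.29 ± 0.07 with tunicamycin (2.45-fold, adjusted p = 2.18e-07) and 0.01 with mock. NAI2, which is needed to form ER bodies, averaged 6887 ± 946 in ire1a ire1b and 1704 ± 109 in WT with tunicamycin (SD, n = 3 each), a difference of 2.01 ± 0.10 (adjusted p = 1.96e-07). Under mock NAI2 averaged 6395 ± 367 in ire1a ire1b and 4689 ± 75.7 in WT, a difference of 0.45 (limma adjusted p = 0.11). Its interaction of 1.56 ± 0.15 passed. The lectin gene JAL33 was higher by 0.48 ± 0.10, a call lost without WT array 1 (adjusted p = 0.051). The mock difference of JAL33 was 0.31, and its interaction of 0.17 ± 0.15 did not pass (adjusted p = 0.76). NAI1, the transcription factor of the pathway, was at -0.05 ± 0.26 (adjusted p = 0.93).

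Vacuolar and secreted proteases enter the ER as precursors, many of them N-glycosylated. Of 13 tested genes, 10 were called higher and 0 lower, with a median difference of 0.95 under tunicamycin and -0.08 under mock, and 8 passed in the interaction. The vacuolar carboxypeptidase gene SCPL49 averaged 2384 ± 278 in ire1a ire1b and 1049 ± 29.2 in WT (1.18 ± 0.10, adjusted p = 8.90e-06). The aspartic proteinase gene APA1 read 7216, 8190 and 6728 in ire1a ire1b and 3865, 4385 and 4654 in WT. The papain-type gene AT4G16190 read 4829, 4988 and 2253 in ire1a ire1b and 1092, 1441 and 1218 in WT, where array 3 of ire1a ire1b was the lowest of its group but still above every WT array. BETA-VPE, the seed-type relative of GAMMA-VPE, was at -0.30 (adjusted p = 0.40), and scpl48 and scpl20 at 0.21 (adjusted p = 0.41) and 0.20 (adjusted p = 0.57).

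Other families of hydrolases, listed after values of these data had been seen, also held many higher members. Among 15 serine carboxypeptidase-like genes 8 were higher and 0 lower, at a median of 0.72. The family member with the smallest p, scpl26, averaged 1747 ± 70.3 in ire1a ire1b and 573 ± 34.2 in WT (1.61 ± 0.11, adjusted p = 7.79e-07). Among 16 subtilases, serine proteases of the cell wall and secretory route, 7 were higher and 0 lower, at a median of 0.44. The largest difference was that of AT3G14067, at 654, 502 and 494 in ire1a ire1b and 102, 162 and 136 in WT with tunicamycin, and at 568, 561 and 391 in ire1a ire1b and 520, 472 and 436 in WT under mock. ARA12, a subtilase of the seed coat mucilage, averaged 1441 ± 142 in ire1a ire1b and 639 ± 29.0 in WT. Among 9 BGLU beta-glucosidases other than PYK10, 5 were higher and 0 lower. BGLU44 averaged 7400 ± 1005 in ire1a ire1b and 3454 ± 85.1 in WT. BGLU28 had the largest negative value, -1.93 ± 0.66, without passing (adjusted p = 0.088). SCPL49 and scpl29 stand in the protease and the carboxypeptidase lists, and ARA12 in the protease and subtilase lists, so the counts overlap.

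Class III peroxidases, secreted haem enzymes that work on the cell wall and in defence, were the largest family with higher members. Of 35 tested, 17 were called higher and 0 lower, 11 passed in the interaction, and the median difference was 0.66 under tunicamycin and -0.10 under mock. Under mock 0 were called higher and 1 lower (4 higher and 8 lower at an unadjusted limma p under 0.05). These mock differences enter the interaction. AT5G64120, peroxidase 71, read 1881, 2102 and 1361 in ire1a ire1b and 374, 382 and 234 in WT with tunicamycin (2.44 ± 0.28, adjusted p = 8.54e-05). AT4G30170 read 1458, 1839 and 1202 in ire1a ire1b and 388, 316 and 322 in WT. With tunicamycin the groups did not overlap in either gene. Under mock AT4G30170 had 1470, 1873 and 1053 in ire1a ire1b and 1863, 1497 and 1641 in WT. AT5G64120 had a higher mean in ire1a ire1b under mock too, at 1777, 2556 and 1362 against 1065, 1533 and 748 in WT. That mock difference of 0.78 did not pass (limma adjusted p = 0.47), while the interaction of 1.66 ± 0.40 did. PRXR1, the brightest of the family, averaged 16078 ± 3297 in ire1a ire1b and 8951 ± 879 in WT (0.83 ± 0.15, adjusted p = 0.00263). For the remaining 18 the values lay between -0.35 and 0.82, among them Prx37 at -0.10 and AT5G40150 at -0.08.

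Secreted defence proteins, chitinases and cell wall proteins also held higher and 0 lower calls, of which fewer passed in the interaction. There, 2 secreted defence genes, 2 chitinases and 3 cell wall genes passed. PDF2.1 was higher by 1.58 with tunicamycin and by 1.46 with mock. The chitinases AT2G43590 and CHI were higher by 1.63 and 0.99 with tunicamycin and by 1.07 and 0.68 with mock. None of these 3 mock differences was called. Of 6 secreted defence genes 4 were higher and 0 lower, led by OSM34, an osmotin, at 978, 1073 and 1224 in ire1a ire1b and 417, 238 and 223 in WT (1.95 ± 0.20, adjusted p = 2.88e-05). Of 10 chitinases, enzymes that cut fungal chitin, 5 were higher and 0 lower, at a median of 1.08. ChiC, which stands in both lists, was lowest in WT with tunicamycin. It read 800, 695 and 314 in ire1a ire1b and 167, 211 and 234 in WT there. Under mock it read 526, 723 and 474 in ire1a ire1b, all below the 971, 1217 and 869 in WT. That mock difference of -0.84 did not pass (limma adjusted p = 0.42), and it enters the interaction of 2.31 ± 0.41. AT2G43620 read 2574, 2258 and 917 in ire1a ire1b and 437, 342 and 350 in WT, but its interaction of 1.25 ± 0.56 did not pass (adjusted p = 0.41). Of 15 cell wall genes 6 were higher and 0 lower. Besides ATPMEPCRB these included COB, which orients cellulose microfibrils (3162 ± 354 in ire1a ire1b and 1912 ± 58.7 in WT), and the xyloglucan-modifying EXGT-A3 (717 ± 46.7 in ire1a ire1b and 454 ± 36.6 in WT). XTH20 passed by little (0.59 ± 0.18, adjusted p = 0.0496), its mock difference was also 0.59, and 14 alternative settings ended its call.

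RALF-like genes encode small secreted signalling peptides cut from a longer precursor. Of 7 tested, 4 were higher and 0 lower, at a median of 0.95. RALFL22 averaged 1264 ± 217 in ire1a ire1b and 564 ± 87.8 in WT (1.16 ± 0.16, adjusted p = 0.000320), with 967, 1309 and 965 in ire1a ire1b and 1303, 1359 and 1258 in WT under mock. RALFL34, RALFL32 and RALFL24 were not called, at -0.03, -0.34 and 0.36. Cytochrome P450 enzymes sit in the ER membrane by an N-terminal anchor. Of 9 tested, 4 of the CYP71B subfamily were higher and 0 lower, CYP71B6 with the least spread (660, 626 and 635 in ire1a ire1b, and 305, 317 and 306 in WT). This count was 1 without array 1 of ire1a ire1b or WT array 3, and 2 without array 2 of either genotype. Only CYP71B6 passed in the interaction, and 11 alternative settings ended the call of CYP71B34.

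**Figure D3:**
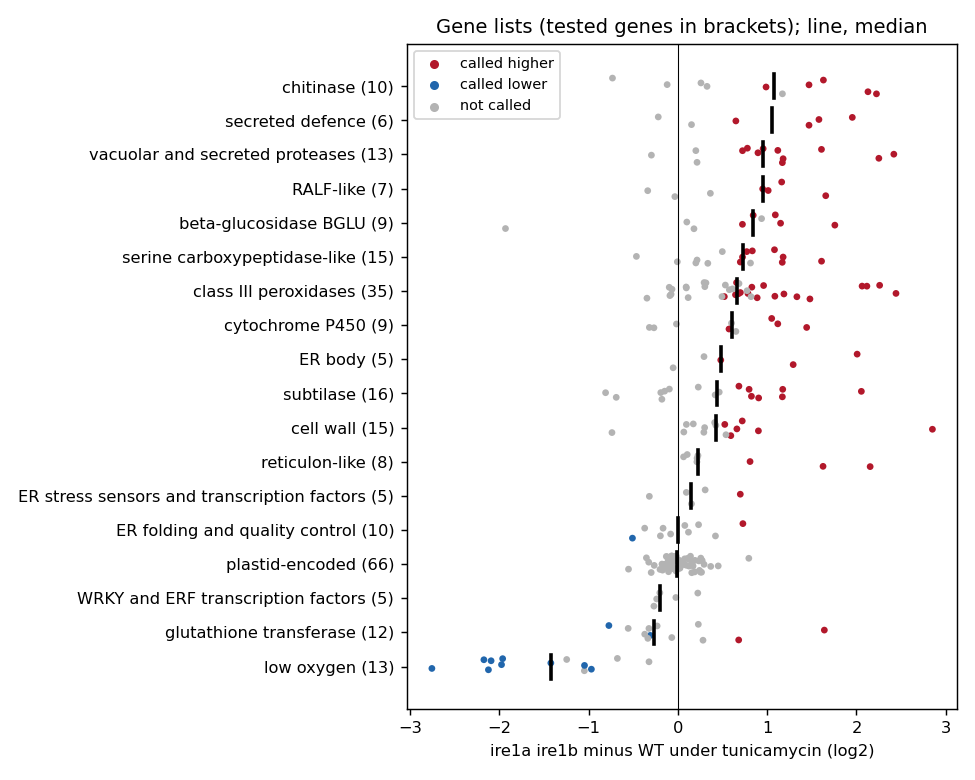
Log2 difference of ire1a ire1b minus WT with tunicamycin for each tested member of 18 gene lists; a point is a gene, red called higher, blue called lower and grey not called, and the black line is the list's median. Chitinases (median 1.08), secreted defence proteins (1.06) and proteases (0.95) lie to the right, plastid-encoded genes (-0.01) around 0 and low-oxygen genes (-1.42) to the left.

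Products that do not enter the ER were covered by few lists. Of 66 plastid-encoded genes, 0 were called in either direction by limma, with a median of -0.01 (at an unadjusted p under 0.05, 2 were higher and 2 lower). The 5 tested WRKY and ERF transcription factors held 0 calls, also at an unadjusted p under 0.05, at a median of -0.20. The 3 cytosolic heat shock genes held 0 calls too (1 higher at an unadjusted p under 0.05), but all 3 values were above 0, from 0.12 to 0.91, at a median of 0.73. Over all named genes 6.14% were called higher and 3% lower, so 0 calls among 5 or 3 genes cannot set these lists apart. The lists above with 0 lower calls held 0 to 2 lower members at an unadjusted p under 0.05. The cytosolic glutathione transferases were mixed: of 12, GSTF4 and GSTU22 were higher (16.7%) and GSTU28 and GSTL3 lower (16.7%), at a median of -0.27. GSTF4 was higher by 1.64 ± 0.22 with tunicamycin and by 1.74 with mock.

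Of the ER's own folding and quality control genes, 36 were listed, but only 10 had a named probe set and were tested. Of these 10, 1 was higher (10%) and 1 lower (10%), against 6.14% and 3% over all named genes. Their median difference was -0.002. ATERDJ3B, an ER-lumenal J-domain co-chaperone of BiP, read 2142, 2416 and 2501 in ire1a ire1b and 1544, 1354 and 1364 in WT with tunicamycin. Its groups did not overlap (0.73 ± 0.11, adjusted p = 0.000733), and under mock the difference was -0.002. DER1, a derlin of ER-associated degradation, was lower at 347, 266 and 365 in ire1a ire1b, against 468, 426 and 489 in WT (-0.51 ± 0.15, adjusted p = 0.0452), and 11 alternative settings ended that call.

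Among the 5 stress sensors and transcription factors tested, 1 was called, AT4G20310, listed as the site-2 protease that releases membrane-bound bZIP factors (0.70 ± 0.19, adjusted p = 0.0307, lost under 5 alternative settings). BZIP60 read 1200, 929 and 1067 in ire1a ire1b and 1045, 1425 and 1554 in WT with tunicamycin. The groups overlapped, and the difference of -0.32 ± 0.17 did not pass (95% interval -0.70 to 0.05, adjusted p = 0.298). The probe set gives the total level and does not tell the spliced form from the unspliced. BZIP28 and BZIP17, which are activated by proteolysis, were at 0.31 ± 0.19 (adjusted p = 0.380) and 0.15 ± 0.20 (adjusted p = 0.713).

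A small set of genes was higher in ire1a ire1b to about the same degree with and without tunicamycin. Besides AT1G68230 and GSTF4 it held AT2G27140, at 374, 377 and 427 in ire1a ire1b and 93.2, 103 and 102 in WT with tunicamycin, and at 390, 399 and 381 in ire1a ire1b and 110, 101 and 66.1 in WT under mock. The difference was 1.98 ± 0.18 with tunicamycin and 2.11 with mock, and the interaction was -0.13 ± 0.25. AT4G09950 (1.91 and 1.59) and AT1G29520 (1.86 and 1.67) were similar, the tunicamycin difference being the first value of each. AT3G18260, another reticulon-like gene, was higher by 1.63 ± 0.21 with tunicamycin and 2.32 with mock. Of 8 reticulon-like genes 3 were higher and 0 lower with tunicamycin, and 2 of these also with mock, while the third, AT3G10260, was at 0.81 with tunicamycin and 0.01 with mock. With only the brighter probe sets tested (above the 60th percentile) that count was 1.

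Of the 12 named genes furthest below WT in ire1a ire1b under tunicamycin, 6 belong to the list of genes that respond to low oxygen. Of 13 tested genes of that list, 9 were called lower and 0 higher, all 13 had a negative difference, and the median was -1.42. AT5G10040 read 314, 272 and 123 in ire1a ire1b and 1454, 1250 and 1784 in WT (-2.76 ± 0.60, adjusted p = 0.00872). AT2G17850 read 617, 560 and 276 in ire1a ire1b and 2065, 1705 and 2489 in WT (-2.17 ± 0.46, adjusted p = 0.00775). AT4G33560 read 153, 135 and 71.6 in ire1a ire1b and 464, 430 and 577 in WT. In each of these the groups were far apart, and array 3 of ire1a ire1b was the lowest, as for 11 of the 13 genes.

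AT3G03270, the brightest called gene of the list, read 1866, 1960 and 1468 in ire1a ire1b and 4760, 4041 and 5391 in WT (-1.42 ± 0.26, adjusted p = 0.00277). CML38, a calmodulin-like calcium sensor, was lower by less, at 716, 630 and 410 in ire1a ire1b and 955, 958 and 1520 in WT (-0.97 ± 0.24, adjusted p = 0.0217). AT1G33055, AT4G24110, AT4G10270 and AT5G44730 were also called, at -2.12, -1.98, -1.96 and -1.05. The 4 that were not called, AT3G10040, AT1G19530, AT3G27220 and AT5G42200, were at -1.25, -1.05, -0.68 and -0.32. The number called was 5 without array 3 of ire1a ire1b or WT array 3 and 6 without WT array 2.

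The low-oxygen genes were unevenly expressed in ire1a ire1b under mock, where 0 members were called (1 lower at an unadjusted p under 0.05). Mock array 2 of ire1a ire1b was the highest of its 3 for all 13 genes, at a median of 0.62 above the WT mock mean, while arrays 1 and 3 lay at -1.30 and -0.95 and below every WT mock array in all 13. For AT5G10040 the mock signals were 172, 1713 and 439 in ire1a ire1b and 986, 1517 and 934 in WT. For AT2G17850 they were 550, 2606 and 650 in ire1a ire1b and 1591, 2018 and 1342 in WT. The median mock difference of the list was -0.64 with all arrays and -1.20 without array 2, when 4 members were called lower under mock. With array weights, which weight that array at 0.47, 9 members were called lower under mock at a median of -1.10, and the median interaction was -0.22 in place of -0.92. In the interaction 0 members were called with all arrays, without array 2 and with array weights (with all arrays, 3 lower at an unadjusted p under 0.05). The 3 ire1a ire1b arrays with tunicamycin had medians of -1.40, -1.26 and -1.68. None of them was high as mock array 2 was, but array 3 was the lowest of the 3 for 11 of the 13 genes. In WT the list changed little with tunicamycin, by a median of 0.26.

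**Figure D4:**
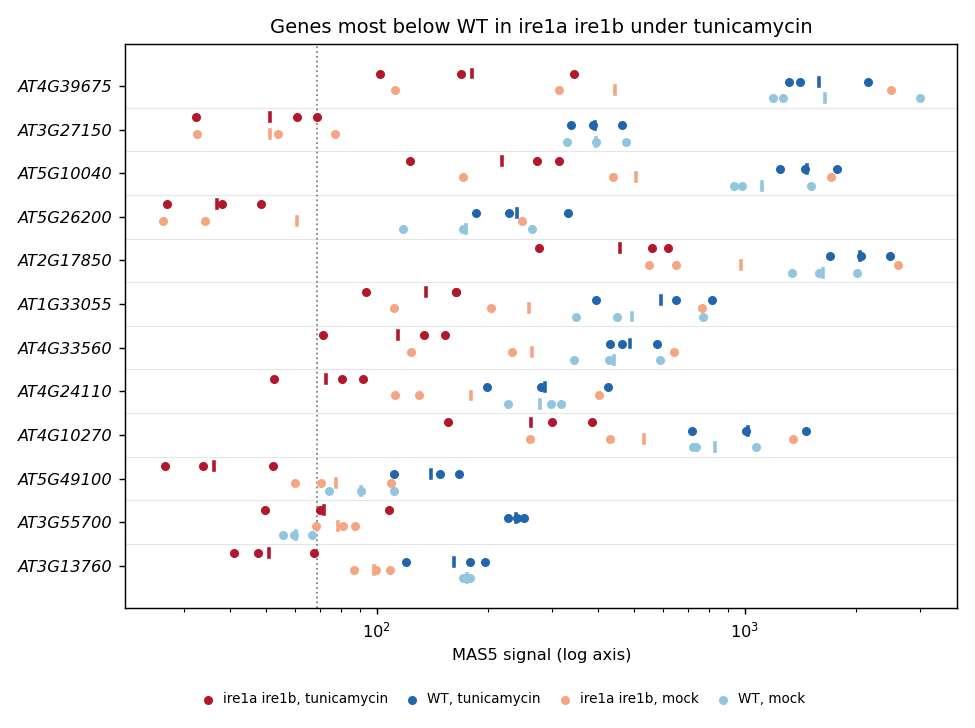
MAS5 signal (log axis) on each of the 12 arrays for the 12 named genes furthest below WT in ire1a ire1b with tunicamycin; points are arrays, short bars are geometric means of 3 arrays, and the dotted line is the signal of 68.7. In 8 of the 12 genes 1 mock array of ire1a ire1b lies far right of the other 2, within or above the WT range, whereas the 3 tunicamycin arrays of ire1a ire1b lie left of all WT arrays.

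Among the other lower genes, AT4G39675 had the largest difference of all named lower genes but the least even arrays, at 343, 169 and 102 in ire1a ire1b and 1416, 1322 and 2168 in WT (-3.14 ± 0.81, adjusted p = 0.0256). Leaving out any tunicamycin array except array 1 of ire1a ire1b ended its call. AT5G26200 read 38.0, 48.5 and 26.8 in ire1a ire1b and 186, 228 and 330 in WT. Both had the pattern of the low-oxygen genes under mock, with only array 2 of ire1a ire1b high (2495 for AT4G39675 and 247 for AT5G26200). AT3G27150 was low in ire1a ire1b whatever the treatment: 32.3, 60.6 and 68.7 in ire1a ire1b and 388, 337 and 463 in WT with tunicamycin, and 54.0, 32.4 and 77.0 in ire1a ire1b and 328, 476 and 393 in WT under mock. Its difference was -2.94 with tunicamycin and -2.94 with mock, and the interaction was 0.01 ± 0.45.

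Only 3 named genes were lower in ire1a ire1b and passed in the interaction as well. AT3G55700 read 108, 70.0 and 49.6 in ire1a ire1b and 228, 251 and 240 in WT with tunicamycin, but 81.0, 87.1 and 68.5 in ire1a ire1b and 66.6, 59.6 and 55.7 in WT under mock. It was thus high only in WT with tunicamycin (genotype difference -1.73 ± 0.24, interaction -2.11 ± 0.34, adjusted p = 0.00334). AT5G49100 read 52.4, 33.8 and 26.6 in ire1a ire1b and 111, 149 and 167 in WT with tunicamycin, with an interaction of -1.73 ± 0.42 (adjusted p = 0.0402). AT1G10980, named because the count was small, averaged 59.4 ± 10.6 in ire1a ire1b and 114 ± 27.0 in WT with tunicamycin (-0.93 ± 0.22, interaction -1.51 ± 0.31). All 3 are dim, with the ire1a ire1b means near or below the signal of 68.7.

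Some of the largest differences sit in probe sets with no gene listed, which are given by their array identifier and were chosen after their values were seen. Probe set 258791_at read 6327, 6004 and 5429 in ire1a ire1b and 798, 625 and 675 in WT with tunicamycin (3.09 ± 0.10, adjusted p = 1.27e-09), while under mock it averaged 8109 ± 496 in ire1a ire1b and 6965 ± 279 in WT. Probe set 264252_at went the other way, at 67.0, 91.0 and 42.0 in ire1a ire1b and 499, 512 and 572 in WT with tunicamycin (-3.05 ± 0.33, adjusted p = 4.81e-05). Under mock it was at 70.0 ± 17.5 in ire1a ire1b and 50.1 ± 24.0 in WT, so it too was high only in WT with tunicamycin. In all, 442 of the 911 higher and 187 of the 413 lower probe sets have no gene listed, and 20 and 7 have several, so the gene lists describe only a part of the calls.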

How the data were processed

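Each deposited value is a linear intensity of 1 probe set, which the authors computed by MAS5, according to the submitters' processing notes; no label or header used here gives its version or settings. The common trimmed mean shows a scaling of each array, so all differences are relative to the bulk of the transcripts on it. Of 22810 probe sets, 64 controls were left out; 13513 have 1 gene in the platform's gene table, 503 several and 8730 none listed. Symbols came from RefSeq (TAIR10.1; 13436 matched), with no positions or sequences used.

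Signals were log2-transformed and not normalized again. The 13647 probe sets with a mean log2 above the 40th percentile (6.10, a signal of 68.7) were tested in limma 3.58.1 (R 4.3.3) with 1 mean per group over all 12 arrays and an intensity trend, with two-sided tests, p-values adjusted over all of them by the Benjamini-Hochberg method and 0.05 as the threshold. The script was tested on simulated data. Values are log2 differences ± SE with 3 arrays per group; folds come from mean log2 values. The number of arrays limits the precision.

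Same-numbered ire1a ire1b arrays with tunicamycin and mock had correlations of deviations of 0.11, 0.44 and 0.51. Tunicamycin array 1 had 0.16 with mock array 2, however, so number 1 does not clearly mark a pair. Same-numbered ire1a ire1b and WT arrays with tunicamycin had -0.10, -0.005 and 0.03, so no block was used. Under mock the genotypes' same-numbered arrays had 0.08, 0.34 and 0.39, 1 of them under the 0.1 asked of every pair.

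Genes are named by a rule: the 16 largest higher and 12 largest lower called genes whose groups do not overlap, up to 6 more called members per list with the smallest p, the 6 largest called in both treatments, and the bZIP, IRE1 and BIP genes; uncalled list members are given as values. In a list, the brightest probe set stands for a gene. The groups, members and lists were chosen with earlier results of these data known. The chitinase, subtilase, reticulon-like, carboxypeptidase, BGLU and RALF-like lists were added after the values were seen. Family membership of genes given only by locus is from these lists. Planned shares of hydrophobic N termini and N-glycosylation sites need protein sequences, which were not used here.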

Additional observations from a re-analysis of the deposited data

Results flagged for a closer look

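Among the 95 genes picked by the naming rule, the genotype difference itself differed between tunicamycin and mock for 44 (limma interaction, adjusted p under 0.05). The rule picks genes mainly by their difference under tunicamycin, which is part of the interaction. The 44 are therefore no independent finding and do not show how common interactions are. Of the 7355 tested probe sets with 1 named gene, 192 passed the interaction in the higher direction and 3 in the lower. Of all 13647 tested, 406 (2.98%) and 12 (0.0879%) did. The values below are log2 interactions, the ire1a ire1b minus WT difference with tunicamycin minus that with mock. Over all probe sets, 393 higher and 11 lower ones passed both tests. Among the genes furthest above WT these were ATPMEPCRB at 3.12, AT3G56060 at 2.67, AT4G29270 at 2.37 and AT4G11190 at 1.97. Peroxidases were AT5G64120 at 1.66, AT4G30170 at 2.34, AT5G19890 at 2.01, AT4G36430 at 1.45, AT1G71695 at 0.59, PRXR1 at 0.95 and AT3G21770 at 1.03. Proteases were GAMMA-VPE at 2.74, AT1G62290 at 1.98, SCPL49 at 1.29, AT1G02305 at 1.18, ARA12 at 1.17, APA1 at 0.86, AT4G01610 at 0.96 and AT4G16190 at 1.93. Subtilases were AT3G14067 at 1.98, SBT4.12 at 0.87, AT3G14240 at 0.76 and AT2G05920 at 0.81. Carboxypeptidase-like genes were scpl26 at 1.48, scpl35 at 0.97 and scpl25 at 0.80. In the ER, NAI2 was at 1.56, PYK10 at 1.28, ATERDJ3B at 0.73 and CYP71B6 at 0.71. Beta-glucosidases were BGLU44 at 0.98, BGLU25 at 0.98, BGLU16 at 1.05 and BGLU40 at 1.16. Peptide genes were RALFL22 at 1.45, RALFL31 at 1.07 and RALFL33 at 1.15. Cell wall and defence genes were COB at 0.98, EXGT-A3 at 1.05, OSM34 at 1.75, ChiC at 2.31 and AT3G47540 at 2.23. In the lower direction were AT5G49100 at -1.73 and AT3G55700 at -2.11. In groups of 3 arrays no single array was tested as an outlier.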

How the results depend on the processing

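No result counted as reversed under any alternative, but some list medians near 0 changed sign. Across the settings the WRKY and ERF median ranged from -0.32 to 0.05 and the plastid-encoded median from -0.11 to 0.06. The median of the ER folding and quality control genes ranged from -0.06 to 0.08. With 3 arrays a group, leaving out 1 array gave 656 to 1024 higher and 187 to 469 lower probe sets under tunicamycin, 272 to 580 higher and 6 to 21 lower that also passed in the interaction, and 15 to 33 higher and 15 to 70 lower under mock. The count of 11 lower in both tests became 6 or 7 without tunicamycin array 2 of ire1a ire1b, any WT tunicamycin array, mock array 3 of ire1a ire1b or WT mock array 1 or 3, and 21 without tunicamycin array 3 of ire1a ire1b. The count of 44 lower under mock became 15, 16 or 19 without any WT mock array or mock array 1 of ire1a ire1b, 27 or 28 without WT tunicamycin array 1 or 2 or mock array 3 of ire1a ire1b, and 70 without tunicamycin array 3 of ire1a ire1b. Without a filter on dim probe sets 29 were lower under mock. With the filter at the 60th percentile 3 were lower in both tests and 14 higher under mock. Median centring gave 264 lower under tunicamycin and 28 lower under mock. A fit of only the 6 tunicamycin arrays gave 264 lower, and one of only the 6 mock arrays 22 lower under mock. Without the intensity trend 27 were lower under mock. Array weights gave 744 higher and 38 lower in both tests, and 309 higher and 598 lower under mock, with 1 ire1a ire1b mock array weighted 5.79 and array 3 of ire1a ire1b with tunicamycin 0.31; the cause was not tested. The replicate block gave 41 higher and 64 lower under mock, 1115 higher and 614 lower under tunicamycin, and 579 higher and 15 lower in both tests; the numbers do not pair the genotypes under tunicamycin, while under mock 2 of 3 pairs deviate together. Quantile normalization and log2(signal + 32) kept all these counts within 1.5 times. Of the 92 called genes picked by the naming rule, 22 lost their call under at least 1 alternative. The hydropathy alternatives were not run. Dim MAS5 signals limit what can be said of low transcripts.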
